A study of Homo sapiens with 10 samples.

Results

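The 44 genes described here encode the machinery that takes a cell through mitosis: 9 kinases, 9 cyclins and regulators of chromosome separation, 6 kinetochore and centromere proteins, the 4 subunits of the chromosomal passenger complex, 7 kinesins, and 9 proteins of spindle assembly, chromosome structure and cytokinesis. They were chosen by name, though with earlier results of these data known, and all 44 were found among the 34567 genes of the table. They were read in 10 poly-A RNA-seq libraries of 2 human glioma cell lines in which MEOX2, a homeobox transcription factor, was lowered or raised. SNB19 cells carried either a scramble siRNA (NC, 3 libraries) or a MEOX2 siRNA (siMEOX2, 3 libraries), delivered transiently by lipofection. U87 cells carried either an empty lentiviral vector (EV, 2 libraries) or a MEOX2 lentivirus (OE, 2 libraries) and were a stably transduced, drug-selected population. Both lines were grown in serum-containing medium, and neither had an untreated library among those analysed. Which of the study's siRNAs was sequenced is not stated, and the treatment labels of EV 2, OE 1 and OE 2 read MEOX3, MEOX4 and MEOX5 where the titles read MEOX2.

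Most of these genes are transcribed late in the cell cycle, from G2 into mitosis, so that their mRNA level in a culture follows the share of cells in those phases. Their promoters commonly carry a cell cycle genes homology region (CHR), read by the DREAM complex in resting cells and by MYB-MuvB and FOXM1 in dividing cells, beside CCAAT boxes bound by NF-Y. CDK1 with cyclin B starts mitosis, kinetochores join chromosomes to spindle microtubules, the checkpoint holds the anaphase-promoting complex until every chromosome is attached, and kinesins and contractile proteins then divide the cell. Glioma cultures divide rapidly, and genes of this kind are usually abundant in them.

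The promoters are shown first, as description only. CHR elements and CCAAT boxes are known from promoters of such genes, so high shares were likely beforehand. RefSeq promoters on GRCh38.p14, from 250 bases before the start of transcription to 50 after it, were at hand for 38 of the 44 members and not for AURKA, TTK, WEE1, UBE2C, BIRC5 and TPX2. A CHR element (TTTGAA or TTCGAA on either strand) stood in 29 of the 38 windows, or 76.3%, against 16.6% of 27305 promoters of the same length. A CCAAT box on either strand stood in 30 of 38, or 78.9%, against 35.7%, and both motifs stood in 24 of 38, or 63.2%, against 6.6%. The homeobox core TAATTA stood in 0 of 38, against 5.0%. The letters show only that the motif is or is not in the window and say nothing of binding. The 5 promoters below are those of CCNB1, CDC20, PLK1 and KIF20A, which were low after both treatments, and of INCENP, which rose most in SNB19. Capitals mark CHR elements and CCAAT boxes in either orientation, each sequence is written 5′ to 3′ on the strand of the gene, and the windows are chr5:69166900-69167199 on the plus strand, chr1:43358731-43359030 on the plus strand, chr16:23678639-23678938 on the plus strand, chr5:138178862-138179161 on the plus strand and chr11:62123761-62124060 on the plus strand.
CCNB1: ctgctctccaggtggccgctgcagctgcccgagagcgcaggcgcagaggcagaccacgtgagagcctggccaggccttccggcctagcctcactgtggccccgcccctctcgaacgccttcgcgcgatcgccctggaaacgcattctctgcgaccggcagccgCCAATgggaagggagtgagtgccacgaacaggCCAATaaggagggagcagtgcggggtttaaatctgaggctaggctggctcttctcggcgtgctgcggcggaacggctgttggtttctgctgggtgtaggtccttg
CDC20: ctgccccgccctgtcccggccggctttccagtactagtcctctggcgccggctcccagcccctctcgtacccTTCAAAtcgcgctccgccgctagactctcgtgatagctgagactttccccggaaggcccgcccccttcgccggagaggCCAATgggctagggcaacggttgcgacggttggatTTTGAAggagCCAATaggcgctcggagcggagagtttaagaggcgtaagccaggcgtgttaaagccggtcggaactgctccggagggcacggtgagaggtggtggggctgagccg
PLK1: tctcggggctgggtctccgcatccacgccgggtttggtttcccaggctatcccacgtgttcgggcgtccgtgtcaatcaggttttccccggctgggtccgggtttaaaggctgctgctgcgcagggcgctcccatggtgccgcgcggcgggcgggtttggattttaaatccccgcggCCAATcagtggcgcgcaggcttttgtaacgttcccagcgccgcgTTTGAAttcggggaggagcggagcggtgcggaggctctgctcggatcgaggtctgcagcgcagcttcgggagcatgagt
KIF20A: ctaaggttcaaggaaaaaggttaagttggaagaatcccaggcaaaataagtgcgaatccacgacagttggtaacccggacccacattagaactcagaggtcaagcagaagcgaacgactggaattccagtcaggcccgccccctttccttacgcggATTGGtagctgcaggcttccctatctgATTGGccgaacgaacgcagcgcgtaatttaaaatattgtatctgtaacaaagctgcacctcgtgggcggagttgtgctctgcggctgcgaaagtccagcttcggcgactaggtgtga
INCENP: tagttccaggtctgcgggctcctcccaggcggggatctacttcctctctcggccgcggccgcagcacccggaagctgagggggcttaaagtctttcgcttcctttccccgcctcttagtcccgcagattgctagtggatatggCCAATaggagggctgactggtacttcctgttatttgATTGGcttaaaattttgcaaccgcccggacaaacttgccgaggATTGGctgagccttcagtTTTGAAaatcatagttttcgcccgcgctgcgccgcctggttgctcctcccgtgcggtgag
CDC20, PLK1 and INCENP carried both kinds of motif. CCNB1 and KIF20A carried 2 CCAAT boxes each and no CHR in the spellings searched. Other spellings of the CHR were not searched. Among the 38, the CHR letters stood in 12 of 19 members that fell after MEOX2 knockdown, 7 of 8 that rose and 10 of 11 that did neither.

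MEOX2 itself followed its labels in every library. It gave 249, 224 and 275 reads in the NC libraries and 54, 40 and 49 in the siMEOX2 libraries, a log2 fold change of -2.41 ± 0.14 (SE, 3 libraries against 3, adjusted p = 1.35e-11). In U87 it gave 0 reads in both EV libraries and 4999 and 5308 in the OE libraries. Against a floor of 3 reads per EV library, OE 2, the lower of the pair, was at least 1428-fold higher. OE libraries held 414 and 382 CPM of MEOX2 (read counts scaled to the library size with TMM factors), against 14.4 to 16.7 CPM in the NC libraries of SNB19. The overexpressed level was far above the native level of the other line. Despite this contrast MEOX2 did not pass the test across genes in U87 (adjusted p = 0.123), so a gene could differ this much there and still not be called.

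Libraries held 12533775 to 16560324 counted reads, and no pair of replicates was a copy of the same library. EV 1 stood apart from the other 9. In it 29.1% of genes lay over 2-fold from EV 2, against at most 0.125% in any other replicate pair, and its reads fell on shorter genes (count-weighted median length 3947 bases, against 5178 to 5340 in the others). The biological coefficient of variation was 0.369 in U87 and 0.0551 in SNB19. Markers matched mesenchymal-type glioma cultures in part: VIM was at 81.4 to 687 FPKM (reads scaled to exon length and library size) in all libraries, while GFAP stayed under 0.4 and S100B under 0.25, and the immune markers measured summed to under 1 FPKM everywhere.

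The first comparison asked what lowering MEOX2 did to the mitotic genes of SNB19. Of the 44 members, 22 fell, 8 rose and 14 did not pass the test (adjusted p below 0.05), where 28.5% of all 15525 genes tested fell and 27.4% rose. CCNB1, ANLN, TTK and KIF20A fell most, by 0.60, 0.59, 0.55 and 0.52 on the log2 scale, and INCENP rose most, by 0.59. No member changed over 2-fold. The median log2 fold change of the members was -0.18, against 0.01 for all genes. In 23 members all 3 siMEOX2 libraries lay below all 3 NC libraries, a pattern that 31.8% of all genes showed. In 8 they lay above, as 29.3% of all genes did. In bulk RNA, a changed share of cells in mitosis and a changed amount of these mRNAs per cell cannot be told apart. By flow cytometry the paper reported arrest of MEOX2 knockdown cells at G2/M, and fewer G2/M cells with overexpression. Its proliferation assays gave less growth of SNB19 after knockdown and more growth of U87 with overexpression. How those results relate to the RNA values was not tested. With upper-quartile scaling the split became 18 that fell and 11 that rose. Over all genes that scaling gave 3783 lower and 5051 higher, against 4422 and 4261 with TMM. Fitted together with the U87 libraries, only CCNB1 and TTK passed, and without EV 1 that joint fit called 21 lower and 6 higher, where it called 24.6% of all genes lower.

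**Figure D1:**
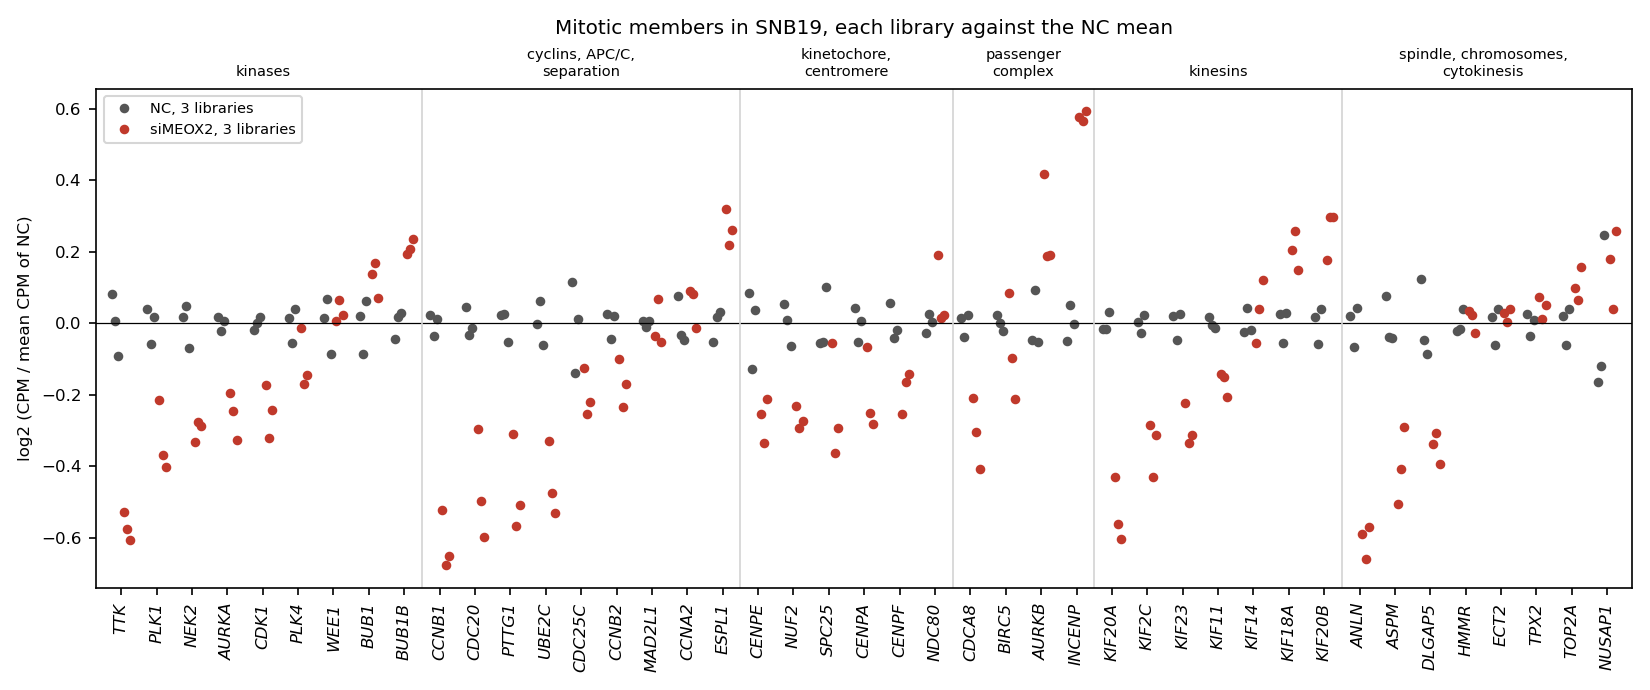
CPM of 43 members in each SNB19 library, as the log2 ratio to the mean of the 3 NC libraries (grey, NC; red, siMEOX2; 1 point per library), ordered by role and then by fold change; PRC1, with 38 reads at most, is not drawn. Red points lie below 0 for CCNB1, ANLN, TTK and KIF20A, above 0 for INCENP, and among the grey points for HMMR and ECT2.

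Among the 9 kinases, 5 fell and 2 rose. TTK, the checkpoint kinase of unattached kinetochores, was at 45.5, 43.2 and 40.4 CPM in the NC libraries and 29.9, 28.9 and 28.3 CPM in the siMEOX2 libraries. All siMEOX2 libraries lay below all NC libraries, and the log2 fold change was -0.55 ± 0.072 (SE), adjusted p = 1.65e-06. PLK1, which drives centrosome maturation and mitotic entry, was at 182, 171 and 179.7 CPM in the NC libraries and 153, 137 and 134 CPM in the siMEOX2 libraries and also fell without overlap (log2 fold change -0.31 ± 0.055 (SE), adjusted p = 6.47e-05). AURKA, the spindle pole kinase, NEK2, which splits the centrosomes, and CDK1, the master kinase of mitosis, fell by 0.24, 0.28 and 0.23 on the log2 scale. BUB1B and BUB1, the 2 BUB kinases of the checkpoint, rose instead, with log2 fold changes of 0.23 ± 0.058 (SE), adjusted p = 0.00232 and 0.14 ± 0.055 (SE), adjusted p = 0.0373. PLK4, which starts centriole duplication, and WEE1, which holds CDK1 inactive, did not pass (log2 fold changes -0.094 and 0.046).

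Of the 9 cyclins and separation genes, 6 fell and 1 rose. CCNB1, the cyclin that activates CDK1, was at 411, 394 and 407 CPM in the NC libraries and 281, 253 and 257 CPM in the siMEOX2 libraries. The groups did not overlap, and this was the largest fall among the 44, with a log2 fold change of -0.60 ± 0.049 (SE), adjusted p = 2.14e-09. CDC20, the activator of the anaphase-promoting complex, was at 351, 333 and 337 CPM in the NC libraries and 278, 241 and 225 CPM in the siMEOX2 libraries (log2 fold change -0.44 ± 0.059 (SE), adjusted p = 2.19e-06). UBE2C, the ubiquitin-conjugating enzyme that works with that complex, was at 162, 169 and 156 CPM in the NC libraries and 129, 117 and 113 CPM in the siMEOX2 libraries (log2 fold change -0.43 ± 0.057 (SE), adjusted p = 2.23e-06). PTTG1, the securin that restrains separase, was at 120, 120.2 and 114 CPM in the NC libraries and 95.2, 79.6 and 82.98 CPM in the siMEOX2 libraries (log2 fold change -0.44 ± 0.062 (SE), adjusted p = 4.35e-06). In each of these 3 genes the lowest NC library was above the highest siMEOX2 library. ESPL1, which encodes separase itself, went the other way, at 130.1, 137 and 138 CPM in the NC libraries and 168, 157 and 162 CPM in the siMEOX2 libraries. Its log2 fold change was 0.28 ± 0.052 (SE), adjusted p = 0.000115, again with no overlap. CCNB2 and CDC25C, the phosphatase that activates CDK1, fell by 0.15 and 0.19, and CCNA2 and MAD2L1 did not pass (0.067 and 0.0077).

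Of the 6 kinetochore and centromere genes, 3 fell and none rose. CENPE, a kinesin of the kinetochore, was at 57.1, 49.3 and 55.2 CPM in the NC libraries and 45.2, 42.7 and 46.6 CPM in the siMEOX2 libraries. The lowest NC library was above the highest siMEOX2 library, and the log2 fold change was -0.25 ± 0.07 (SE), adjusted p = 0.0042. NUF2, a subunit of the NDC80 complex that holds microtubules, and CENPF, of the outer kinetochore, fell by 0.25 and 0.17. The remaining 3 did not pass: CENPA, the histone of the centromere, had a log2 fold change of -0.18, SPC25 of -0.22 and NDC80 of 0.093. CENPA and SPC25 lay lower in every siMEOX2 library than in any NC library, but only just. The lowest NC and the highest siMEOX2 library were at 30.7 and 30.4 CPM for CENPA and at 17.136 and 17.133 CPM for SPC25.

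The chromosomal passenger complex, which corrects wrong attachments and later sits at the midzone, split. INCENP, its scaffold, was at 137, 147 and 142 CPM in the NC libraries and 212, 210 and 214 CPM in the siMEOX2 libraries. All siMEOX2 libraries lay above all NC libraries, with a log2 fold change of 0.59 ± 0.051 (SE), adjusted p = 3.91e-09. AURKB, its kinase, rose as well, with a log2 fold change of 0.28 ± 0.063 (SE), adjusted p = 0.000651. CDCA8, which encodes borealin, fell (log2 fold change -0.29 ± 0.059 (SE), adjusted p = 0.000283), and BIRC5, which encodes survivin, did not pass (-0.056). The 4 subunits of 1 complex thus gave 2 rises, 1 fall and 1 value near 0.

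Of the 7 kinesins, 4 fell and 2 rose. KIF20A, which carries the passenger complex to the midzone, was at 191, 191 and 197 CPM in the NC libraries and 143, 131 and 127 CPM in the siMEOX2 libraries. The groups were well apart, with a log2 fold change of -0.52 ± 0.053 (SE), adjusted p = 6.85e-08. KIF2C, a microtubule depolymerase of the centromere, was at 178, 174 and 180.3 CPM in the NC libraries and 146, 131 and 143 CPM in the siMEOX2 libraries (log2 fold change -0.33 ± 0.052 (SE), adjusted p = 2.07e-05). KIF23, a subunit of centralspindlin, was at 195, 186 and 196 CPM in the NC libraries and 165, 152 and 155 CPM in the siMEOX2 libraries (log2 fold change -0.28 ± 0.051 (SE), adjusted p = 9.93e-05). Neither of these 2 overlapped between groups. KIF11, which pushes the spindle poles apart, fell by 0.15. KIF20B, a relative of KIF20A, and KIF18A, which dampens chromosome movement, rose (log2 fold changes 0.27 and 0.22), and KIF14 did not pass (0.052).

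Of the 9 genes of spindle assembly, chromosome structure and cytokinesis, 3 fell and 1 rose. ANLN, the anillin of the cleavage furrow, was at 307, 289 and 311 CPM in the NC libraries and 201, 191 and 204 CPM in the siMEOX2 libraries. No siMEOX2 library reached the level of an NC library, and the log2 fold change was -0.59 ± 0.05 (SE), adjusted p = 3.03e-09. ASPM, which focuses spindle poles, was at 211, 195 and 194 CPM in the NC libraries and 141, 151 and 163 CPM in the siMEOX2 libraries (log2 fold change -0.38 ± 0.059 (SE), adjusted p = 1.20e-05). DLGAP5, which stabilises kinetochore fibres, was at 94.5, 84.1 and 81.8 CPM in the NC libraries and 68.6, 70.1 and 66.1 CPM in the siMEOX2 libraries (log2 fold change -0.33 ± 0.063 (SE), adjusted p = 0.000136). Both fell with no overlap. TOP2A, the topoisomerase that untangles sister chromatids, rose by a small amount (log2 fold change 0.12 ± 0.048 (SE), adjusted p = 0.0375). TPX2, HMMR, ECT2, NUSAP1 and PRC1 did not pass. PRC1 and NUSAP1 held 1 to 38 and 18 to 200 reads in the 10 libraries and share 57.6% and 62.2% of their exon bases with a read-through gene on the same strand, so both values are uncertain.

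The second comparison asked what raising MEOX2 did in U87. All members but 2 were lower in OE than in EV: 41 of the 43 members tested had a fitted log2 fold change below 0, with a median of -0.89 against -0.06 for all genes, and 20 were over 2-fold lower. None of them passed the test across genes, and neither did any of the 14180 genes (0% called), although 1511 genes were lower and 1132 higher at an unadjusted p below 0.05 and DESeq2 called 991. At an unadjusted p below 0.05, 20 members were lower and 0 higher, where 10.7% of all genes were lower, and DESeq2 called 10 members lower and 0 higher. In 31 of the 43, both OE libraries lay below both EV libraries, as did 28.2% of all genes, and in 0 did both lie above. PRC1 was left out by the filter on low counts.

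The result rested on how EV 1 was treated. The ratio of EV 1 to EV 2 fell with gene length: the median log2 difference was 1.01 in the shortest of 10 length bins and -0.80 in the longest, and 19 members were higher in EV 1 (median length 2928 bases) while 25 were higher in EV 2 (4860 bases). OE against EV 2 showed no such slope over all genes (0.08 in the shortest bin, -0.02 in the longest). Without EV 1, 41 of 43 members fell, where 24.2% of all genes fell, and the median was -1.03. There the lone EV 2 is assumed to vary like the OE pair. Without EV 2, 10 members turned from below 0 to above 0, and the rest of the 43 kept their sign. With the length trend taken out of every library, 0 members were called and 41 of 43 lay below 0 again. How EV 1 came to differ was not tested.

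**Figure D2:**
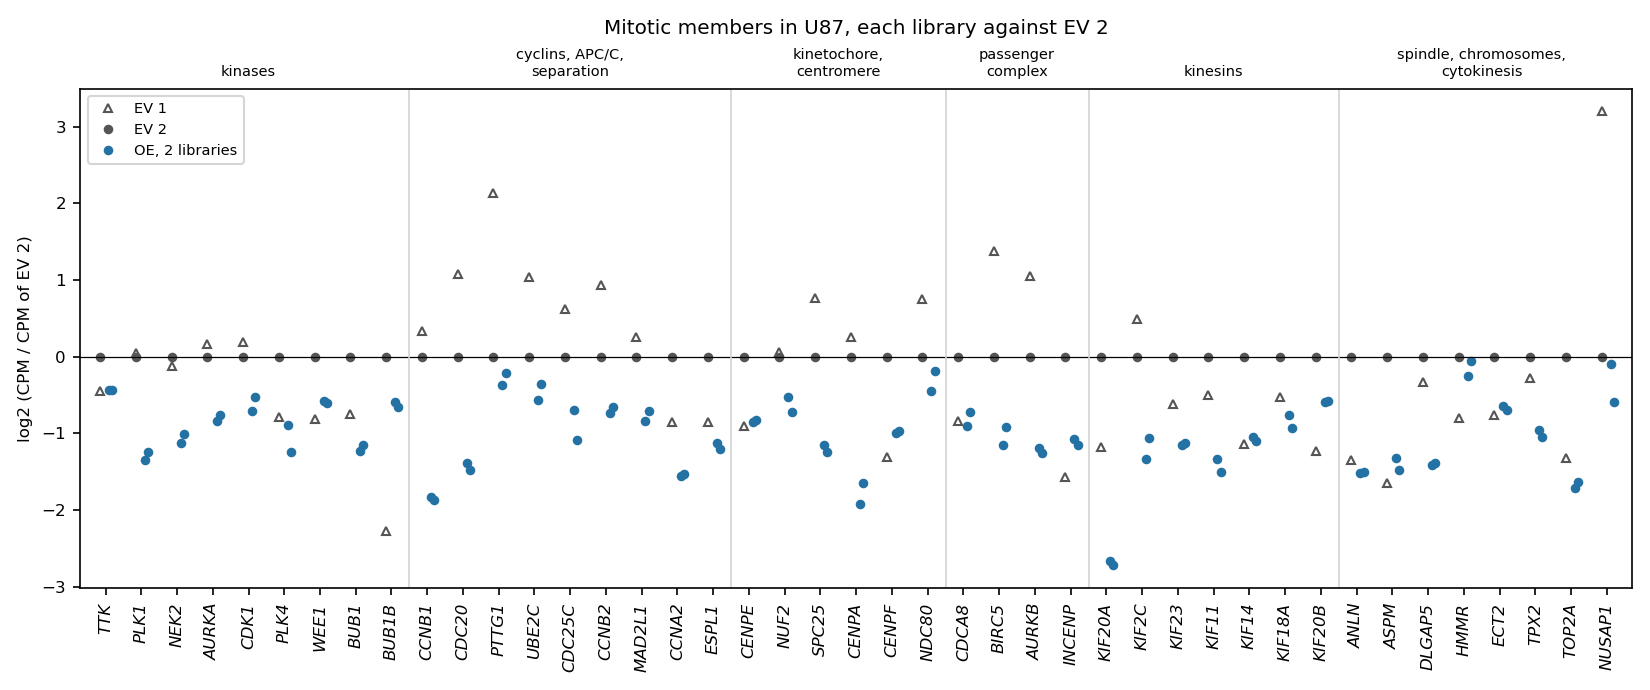
CPM of 43 members in each U87 library, as the log2 ratio to EV 2 (open triangles, EV 1; grey circles, EV 2 at 0; blue circles, the 2 OE libraries), in the order of the SNB19 plot. All blue points lie below 0, from -2.72 for KIF20A to just under 0 for HMMR, while EV 1 lies on either side.

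**Figure D3:**
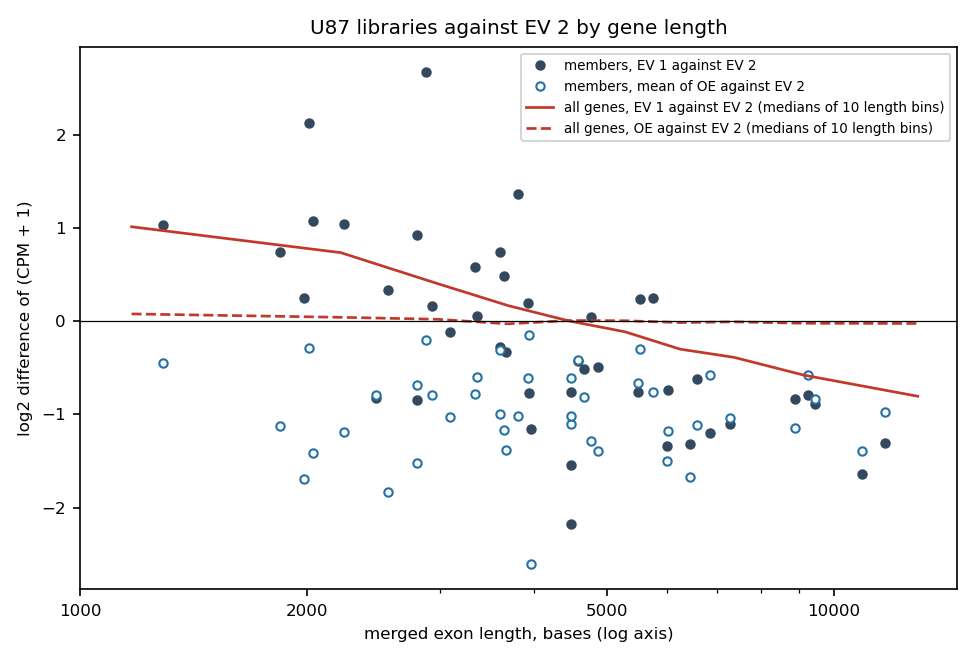
Log2 difference of CPM + 1 from EV 2 against merged exon length (log axis) for the members (filled, EV 1; open, mean of OE) and for all genes (lines, medians of 10 length bins). EV 1 runs from 1.01 down to -0.80 along the bins, while OE stays between -0.03 and 0.08 for all genes and below 0 for every member drawn.

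The members with the smallest p are given here by role, first the regulators of mitotic entry and exit. CCNB1 was at 258 CPM in EV 1, 204 in EV 2 and 57.4 and 55.8 in the OE libraries. Both EV libraries were over 3-fold above either OE library, and the log2 fold change was -2.04 ± 0.29 (SE), adjusted p = 0.136. CDC20 was at 488 CPM in EV 1, 232 in EV 2 and 88.9 and 83.1 in the OE libraries, with EV 1 and EV 2 themselves 2-fold apart (log2 fold change -2.08 ± 0.46 (SE), adjusted p = 0.175). PLK1 was at 174 CPM in EV 1, 168 in EV 2 and 66.1 and 70.8 in the OE libraries, with the EV pair close together (log2 fold change -1.33 ± 0.26 (SE), adjusted p = 0.162). Against EV 2 alone these 3 genes had log2 fold changes of -1.85, -1.43 and -1.30.

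At the centromere, CENPA was at 48.7 CPM in EV 1, 40.9 in EV 2 and 10.8 and 13.1 in the OE libraries, and its EV libraries were close to each other (log2 fold change -1.92 ± 0.29 (SE), adjusted p = 0.142). SPC25 was at 41.7 CPM in EV 1, 24.4 in EV 2 and 11.01 and 10.4 in the OE libraries (log2 fold change -1.64 ± 0.37 (SE), adjusted p = 0.179). Both EV libraries were more than 2-fold above either OE library in these 2 genes. BIRC5, of the passenger complex, was at 511 CPM in EV 1, 197 in EV 2 and 88.7 and 105 in the OE libraries, with EV 1 far above EV 2 (log2 fold change -1.89 ± 0.55 (SE), adjusted p = 0.216). Against EV 2 alone it was -1.03, and the passenger subunits AURKB and INCENP were at -1.23 and -1.12.

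The kinesins KIF20A and KIF2C were also well below EV. KIF20A was at 42.04 CPM in EV 1, 94.6 in EV 2 and 14.99 and 14.4 in the OE libraries. It was the member furthest below EV 2 (-2.69), and the log2 fold change against both EV libraries was -2.23 ± 0.47 (SE), adjusted p = 0.171. KIF2C was at 132 CPM in EV 1, 94.3 in EV 2 and 37.3 and 45.3 in the OE libraries (log2 fold change -1.47 ± 0.32 (SE), adjusted p = 0.172). DLGAP5 was at 86.2 CPM in EV 1, 109 in EV 2 and 40.7 and 41.6 in the OE libraries (log2 fold change -1.25 ± 0.27 (SE), adjusted p = 0.172). The lower EV library was more than 2-fold above the higher OE library for both KIF2C and DLGAP5. NUSAP1 had the largest fitted value, -2.67, from 17.8 CPM in EV 1, 1.94 in EV 2 and 1.82 and 1.29 in the OE libraries, so EV 1 alone set it. Against EV 2 alone NUSAP1 was -0.33 and did not pass.

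In 12 members the OE libraries did not lie below both EV libraries: BUB1B, TTK, WEE1, CENPE, CENPF, INCENP, CDCA8, KIF20B, KIF14, ASPM, HMMR and ECT2. In each of them EV 1 was below EV 2. BUB1B showed this most, at 11.1 CPM in EV 1, 53.8 in EV 2 and 35.8 and 34.1 in the OE libraries, so that OE lay above EV 1 and below EV 2. INCENP was at 50.7 CPM in EV 1, 149.9 in EV 2 and 71.2 and 67.5 in the OE libraries. HMMR, a spindle pole protein, was at 27.5 CPM in EV 1, 47.7 in EV 2 and 40.2 and 45.9 in the OE libraries, and OE was close to EV 2. Of the 12, only HMMR did not pass against EV 2 alone (-0.15).

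MEOX2 was lowered in one line and raised in the other, and many members were lower in both treatments. The 22 members that fell after knockdown in SNB19 all lay below EV on average in U87, as did 7 of the 8 that rose and 12 of the 13 tested that did neither. Against EV 2 alone, all 43 tested lay below 0. The difference of the effects, each taken from less to more MEOX2, was tested in a model of all 10 libraries. It was below 0 for 25 members and above 0 for none at an adjusted p below 0.05, where 14.2% of all genes were lower and 10.2% higher. That model took a common spread for both lines (biological coefficient of variation 0.216), although U87 alone gave 0.369 and SNB19 alone 0.0551. The p-values of the difference thus lean on the tighter SNB19 libraries. Of the 25, 18 had fallen in SNB19. With a replicate block 16 passed. Without EV 1, all 44 differences lay below 0, with a median of -1.03 against 0.08 for all genes. Without EV 2, 36 lay below 0 and 8 above, with a median of -0.92 against 0.15 for all genes. The 4 furthest above 0 were BUB1B (1.91), INCENP (1.08), KIF20B (0.95) and HMMR (0.70). In the fits without EV 1 or EV 2 the lone EV library is assumed to vary like the other groups. The cell line and the way of changing MEOX2, a transient siRNA or a selected lentivirus, cannot be told apart.

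**Figure D4:**
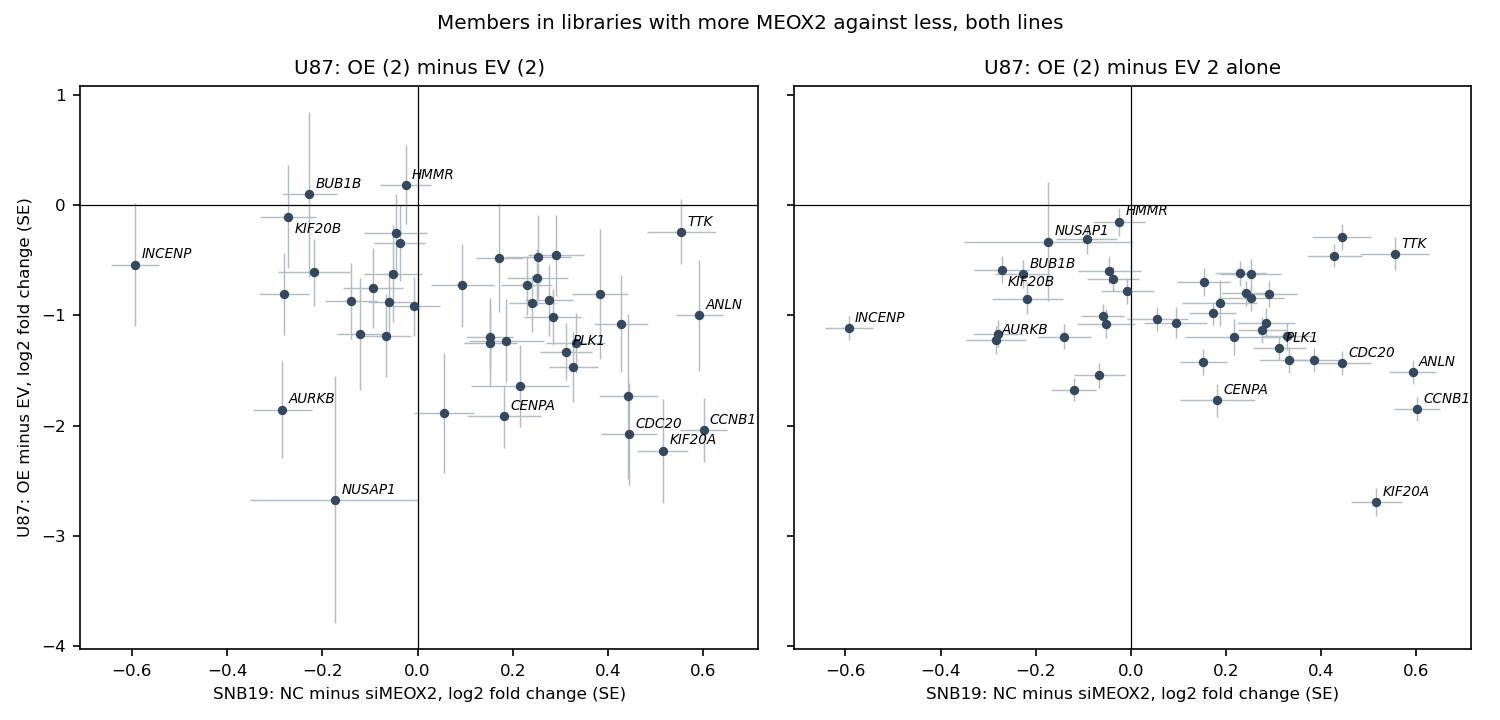
Log2 fold change of each member from less to more MEOX2 in SNB19 (NC minus siMEOX2, horizontal) and in U87 (OE minus EV, vertical), against both EV libraries (left) and against EV 2 alone (right), with standard errors as bars. Most members stand right of 0 and below 0; on the right all 43 lie below 0, KIF20A lowest at -2.69.

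CCNB1 had the smallest adjusted p: its log2 effect of more MEOX2 was 0.60 in SNB19 and -2.04 in U87, and the difference was -2.64 ± 0.19 (SE), adjusted p = 4.58e-05. KIF20A went from 0.52 to -2.23 (difference -2.75 ± 0.39 (SE), adjusted p = 0.00128), and CDC20 from 0.44 to -2.08 (difference -2.52 ± 0.37 (SE), adjusted p = 0.00159). CENPA, PLK1, DLGAP5 and KIF2C differed by -2.10, -1.64, -1.59 and -1.79. In the passenger complex BIRC5 passed (-1.94 ± 0.45 (SE), adjusted p = 0.014), and its difference was -1.05 without EV 1. NUSAP1 did not pass (-2.49 ± 0.997 (SE), adjusted p = 0.0979).

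Other members with small p in this comparison are given in both lines. NEK2 was at 76.7, 78.4 and 72.3 CPM in the NC libraries and 60.2, 62.6 and 62.1 CPM in the siMEOX2 libraries, and at 41.8 CPM in EV 1, 45.4 in EV 2 and 20.8 and 22.6 in the OE libraries. AURKA was at 260.3, 253 and 258 CPM in the NC libraries and 225, 217 and 205 CPM in the siMEOX2 libraries, and at 154 CPM in EV 1, 138 in EV 2 and 77.1 and 81.97 in the OE libraries. Both kinases were lower in every siMEOX2 library and in every OE library than in their controls. KIF11 was at 162, 159.5 and 159 CPM in the NC libraries and 145, 144 and 139 CPM in the siMEOX2 libraries, and at 71.3 CPM in EV 1, 100.3 in EV 2 and 39.7 and 35.5 in the OE libraries. CDK1 was at 135, 137 and 139 CPM in the NC libraries and 122, 109.7 and 116 CPM in the siMEOX2 libraries, and at 156 CPM in EV 1, 136 in EV 2 and 83.1 and 94.4 in the OE libraries. These 2 genes showed the same order of groups. NUF2 was at 56.6, 54.8 and 52.2 CPM in the NC libraries and 46.4, 44.5 and 45.1 CPM in the siMEOX2 libraries, and at 42.1 CPM in EV 1, 40.5 in EV 2 and 28.2 and 24.6 in the OE libraries. MAD2L1, the checkpoint inhibitor of CDC20, was at 103, 101 and 103 CPM in the NC libraries and 99.7, 107 and 98.4 CPM in the siMEOX2 libraries, and at 111 CPM in EV 1, 93.2 in EV 2 and 52.2 and 56.9 in the OE libraries. MAD2L1 overlapped between groups in SNB19 and was lower in both OE libraries than in both EV libraries. The differences of NEK2, AURKA, KIF11, SPC25, CDK1, NUF2 and MAD2L1 ran from -1.86 to -0.91.

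INCENP, BUB1B, KIF20B and HMMR were the members whose fitted difference was above 0 (0.045, 0.32, 0.16 and 0.20), and none of these passed. Without EV 1 all 44 differences lay below 0. With EV 2 alone as control, all 8 members that rose after knockdown had effects of more MEOX2 below 0 in both lines. That sign rests on 1 control library. Against both EV libraries BUB1B was at 0.098 in U87. Against EV 1 alone, the mean of OE was higher by 1.57 for BUB1B, 0.63 for KIF20B and 0.45 for INCENP (log2 of CPM + 1). It was lower for BUB1, ESPL1, AURKB, KIF18A and TOP2A.

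The third comparison set the control libraries of the lines side by side. Levels between genes were read as FPKM. In NC the members had a median of 26.1 FPKM, from 0.283 for PRC1 to 176 for CDC20, and in EV a median of 14.9, from 0.0714 for PRC1 to 166 for UBE2C. Of the 44, 19 were lower in U87 EV and 4 were higher, where 28.1% of all 17312 genes were lower and 28.8% higher. With all 10 libraries the members had a median log2 fold change of -0.41, against -0.03 for all genes. Without EV 1 these medians were -0.37 and -0.09. The split also moved without EV 2, and with the length trend removed from every library it was 13 lower and 12 higher. The shares of all genes were not counted for the fit without EV 2 or for the one with the length trend removed. Line and treatment cannot be told apart here, and the test took a common spread for both lines.

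**Figure D5:**
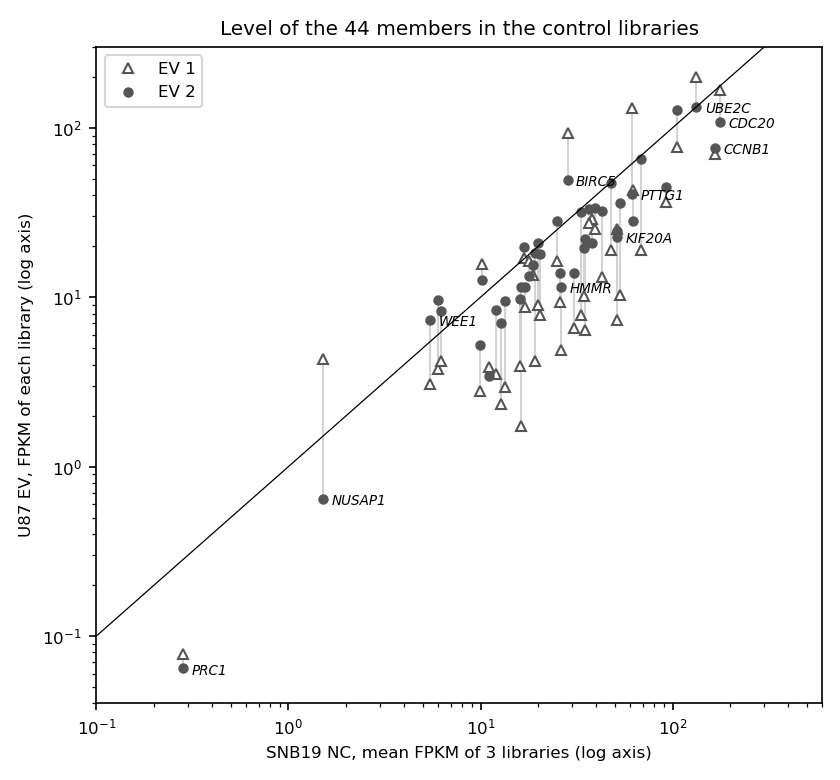
FPKM of the 44 members in U87 EV 1 (triangles) and EV 2 (circles), joined by a grey line, against the mean of the 3 SNB19 NC libraries, both on log axes with the line of equal level. CDC20, CCNB1 and UBE2C are at the top, PRC1 and NUSAP1 at the bottom, and BIRC5 stands above the line in both EV libraries.

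The kinesins were lower in U87 in 6 of 7. KIF23 was at 31.00, 29.8 and 31.6 FPKM in NC, 6.59 in EV 1 and 13.9 in EV 2, a log2 fold change on counts of -1.28 ± 0.18 (SE), adjusted p = 0.000278. KIF20A was at 50.4, 50.8 and 53.02 FPKM in NC, 7.38 in EV 1 and 22.8 in EV 2 (log2 fold change -1.50 ± 0.28 (SE), adjusted p = 0.00174). KIF11, KIF14 and KIF2C had log2 fold changes of -0.90, -1.16 and -0.65. In KIF23 and KIF20A both EV libraries lay below all 3 NC libraries. Without EV 1, KIF14 was at -0.70.

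Of the kinases, 4 were lower. AURKA was at 93.03, 91.1 and 93.7 FPKM in NC, 36.7 in EV 1 and 44.9 in EV 2 (log2 fold change -0.82 ± 0.12 (SE), adjusted p = 0.000344). NEK2 and TTK had log2 fold changes of -0.80 and -0.99, and PLK4 of -0.73. BUB1B had the largest fitted value of the kinases, -1.08, did not pass, and was at 1.73 FPKM in EV 1 against 11.4 in EV 2. Among the cyclins and separation genes CCNB1 (-0.81), CDC25C (-1.20) and ESPL1 (-0.94) were lower and UBE2C (0.75) was higher. Without EV 1, ESPL1 was at -0.57 and PLK4 at -0.38, BUB1B passed at -0.35, and UBE2C did not pass (0.16).

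HMMR was at 25.8, 26.1 and 27.3 FPKM in NC, 4.86 in EV 1 and 11.5 in EV 2 (log2 fold change -1.39 ± 0.21 (SE), adjusted p = 0.000484). BIRC5, known as an inhibitor of apoptosis besides its mitotic role, was at 28.7, 28.4 and 28.2 FPKM in NC, 92.99 in EV 1 and 49.2 in EV 2. It was the member furthest above NC, with a log2 fold change of 1.78 ± 0.31 (SE), adjusted p = 0.00117. SPC25 and CENPA were higher (0.89 and 0.49), while CENPF was lower (-1.03). Without EV 1, BIRC5, SPC25 and CENPF were at 0.94, 0.46 and -0.52, and all 3 passed. PRC1 had the lowest fitted value, -1.58, on 15 to 38 reads in NC and 5 and 7 in EV.

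Further lists of mitotic genes, 4 in all, which hold no member, were counted in the same fits. Of 57 other spindle, kinetochore and cytokinesis genes, 16 fell and 12 rose after knockdown, against the 28.5% of all genes that fell and 27.4% that rose, so that the list lay near or below the share of all genes. CENPH, of the inner kinetochore, rose (log2 fold change 0.88 ± 0.07 (SE), adjusted p = 1.45e-09), while TROAP and GTSE1, both expressed in G2, fell (log2 fold changes -0.73 ± 0.065 (SE), adjusted p = 6.58e-09, and -0.67 ± 0.061 (SE), adjusted p = 8.96e-09). Of 17 subunits and inhibitors of the anaphase-promoting complex 6 fell and 5 rose, with FZR1, its activator in late mitosis, at -0.41 and its subunit CDC23 at 0.35. Of 12 cyclin and kinase partners at mitotic entry, 4 fell and 2 rose, with CDC25B, another activator of CDK1, at -0.56 and ENSA, an inhibitor of a mitotic phosphatase, at 0.51. Of 9 centriole duplication genes 1 fell and 4 rose, led by CEP152 (0.87) and SASS6 (0.79).

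In U87, 48 of the 57 other spindle genes lay below 0 (median -0.91), 14 of the 17 of the anaphase-promoting complex (median -0.51), 9 of the 12 partners at mitotic entry (median -0.94) and 7 of the 9 centriole genes (median -0.12). None of them passed. SPAG5, a spindle protein, was at -1.76, CCNF, a cyclin of G2, at -1.65, and FBXO5, an inhibitor of the anaphase-promoting complex, at -1.16. Without EV 1 the medians of these lists, in the same order, were -0.70, -0.01, -0.75 and -0.42, against 0.01 for all genes.

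Summed levels of cell type markers also differed between groups. The glial and mesenchymal markers (8 genes, 5 over 1 FPKM in NC) summed to 214 to 216 FPKM in NC and 108 to 113 in siMEOX2, and to 319 and 751 in EV and 191 to 194 in OE. VIM made up most of each sum, at 160 to 163 FPKM in NC and 81.4 to 86.1 in siMEOX2. In U87 VIM was at 687 and 241 in EV and 117 and 119 in OE. CD44, NES and SOX2 were also lower in siMEOX2, and NES in OE. OLIG2 was higher after both treatments, at 1.13 to 1.17 in NC and 1.52 to 2.01 in siMEOX2. In U87 OLIG2 was at 1.61 and 1.401 in EV and 6.498 and 5.93 in OE. CD44 overlapped between EV (58.1 and 74.6) and OE (69.4 and 66.03). The fibroblast and pericyte markers (4 genes, 3 over 1 FPKM in EV) summed to 140 and 329 FPKM in EV and 35.2 to 38.4 in OE. The epithelial markers (2 of 4 over 1 FPKM in SNB19) summed to 68.9 to 74.2 FPKM in NC and 49.8 to 56.8 in siMEOX2. Of these, KRT8 went from 41.7 to 45.03 FPKM in NC to 24.1 to 27.7 in siMEOX2, KRT18 was at 26.9 to 28.7 and 24.8 to 28.1, and CDH1 was at 0.142 to 0.235 and 0.691 to 0.735. The endothelial markers (4 genes) summed to 5.43 to 6.08 FPKM in NC and 1.47 to 1.62 in siMEOX2, of which PECAM1 was 4.11 to 4.59 and 0.583 to 0.853. In U87 they summed to 1.01 to 1.73 in EV and 1.29 to 1.42 in OE. The neuronal markers summed to under 5 FPKM in every library. S100B was at 0 in all 4 U87 libraries. The part of these shifts in the values of the mitotic genes was not tested.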

How the data were processed

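Poly-A libraries (an unstranded kit, paired 150-base reads) were aligned and counted by the authors; the submitters' processing notes name HISAT2, HTSeq 0.11.2, DESeq2 1.26.0 and GRCh38. The deposited table holds raw read counts per gene and FPKM values made from them by the authors for 10 libraries; the counting strand is not given in the sources used here. The gene length behind the FPKM equalled the merged exons of GENCODE 29 in 44 of 44 members.

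Counts were tested with edgeR 4.0.16 in R 4.3.3: TMM factors, filterByExpr, quasi-likelihood fits within each line, Benjamini-Hochberg adjustment over all genes tested, called at adjusted p below 0.05. Adjusted p-values are printed. Controls and the difference of effects used all 10 libraries in a 4-group model. CPM are TMM-scaled. FPKM, which the authors deposited, served for levels between genes. Alternatives were DESeq2 1.42.0, other scaling, no filter, a replicate block, pooled fits and leaving out each library; a 9-library fit, a length-corrected fit (loess, span 0.5) and crossed numbers were added after the data were seen. The fits were tested on simulated counts.

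Promoters were the first listed start of each gene. Named members: those called, at most 14 a comparison by adjusted p, filled to 8 by unadjusted p, plus the largest change of each role; at most 3 genes from each other list. The members and lists were chosen with earlier results of these data known. Nothing states that replicates were separate cultures, so p-values measure only the spread between these samples. Depth was 12533775 to 16560324 counted reads a library. Read-through and overlapping genes (16 members share exon bases with another gene) may split reads. No column of authors' comparisons was used.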

Additional observations from a re-analysis of the deposited data

Results flagged for a closer look

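The effect of more MEOX2 differed between the lines in 25 members, by the test of the difference itself. All 25 were below 0, where 14.2% of all genes were lower and 10.2% higher. That test took a common spread for both lines. Each difference is the U87 effect (OE minus EV) minus the SNB19 effect (NC minus siMEOX2) on the log2 scale. Among the kinases the differences were -1.64 for PLK1, -1.30 for NEK2, -1.13 for AURKA, -0.96 for CDK1 and -0.80 for TTK. Among the cyclins and separation genes they were -2.64 for CCNB1, -2.52 for CDC20, -2.17 for PTTG1, -1.50 for UBE2C, -1.42 for CDC25C, -1.40 for CCNB2, -1.12 for CCNA2 and -0.91 for MAD2L1. At the kinetochore they were -2.10 for CENPA, -1.86 for SPC25 and -0.91 for NUF2, and in the passenger complex -1.94 for BIRC5 and -1.57 for AURKB. Among the kinesins they were -2.75 for KIF20A, -1.79 for KIF2C, -1.35 for KIF11 and -1.15 for KIF23. Among the genes of spindle assembly and cytokinesis they were -1.60 for ANLN, -1.59 for DLGAP5 and -0.82 for TPX2. In 1 of the 25, AURKB, the knockdown had raised the gene. Leaving out 1 EV library moved some of them by over 1.5 times, although all 25 still passed. Without EV 1, 5 moved: PTTG1 to -0.70, UBE2C to -0.85, CCNB2 to -0.81, BIRC5 to -1.05 and AURKB to -0.91. Without EV 2, 4 moved: ANLN to -0.73, CCNA2 to -0.59, KIF23 to -0.76 and TTK to -0.51. Groups held 2 or 3 libraries, so Dixon's test of single outlying values was not run on the members.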

How the results depend on the processing

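All 30 members called in SNB19 kept their direction under every alternative run, and 23 of them were called under each one except the 10-library fit and the rule on fold change. That fit called 2 members and 2725 genes in SNB19, and a rule of unadjusted p with over 2-fold change called 0 and 1669, against 30 and 8683. Leaving out 1 SNB19 library gave 24 to 33 members and 7662 to 9102 genes. In U87, 0 members and 0 genes were called in the chosen fit, 10 and 991 by DESeq2, 29 and 4538 in the 10-library fit, 11 and 1863 with no filter on low counts, 39 and 7117 in the 9-library fit without EV 1, 15 and 2160 by unadjusted p with over 2-fold change, and 0 and 11 with the length trend removed. Leaving out 1 U87 library gave 0 to 41 members and 38 to 10616 genes. The replicate numbers did not pair the SNB19 samples (correlations of same-numbered deviations -0.12 to 0.16). A replicate block called 28 members and 8601 genes in SNB19, and 3 members and 468 genes in U87. With it, 17 members passed between controls and 16 in the difference between lines, where all genes were not counted. Crossed numbers, tried after the data were seen because the U87 correlation was -0.42, gave 9 members and 1152 genes. With 2 libraries a group the crossed correlation had to be 0.42, so this fit cannot show which libraries were paired. Between controls, 9 members passed unadjusted p with over 2-fold change, and leaving out 1 library gave 18 to 36, against 23. The difference between lines ranged over 16 to 39 members on leaving out 1 library, against 25, and 4 of 31 lay above 0 without EV 2.

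Some directions turned. In SNB19, MAD2L1 became -0.0061 in the 10-library fit and -0.0026 in the 9-library fit, and BIRC5 0.0084 with upper-quartile factors. Leaving out 1 SNB19 library gave MAD2L1 -0.027 to 0.032, BIRC5 -0.13 to 0.011 and PRC1 -0.53 to 0.22. In the 9-library fit of U87, BUB1B became -0.58 and HMMR -0.10. Leaving out 1 U87 library, the lowest value came without EV 1 and the highest without EV 2: BUB1B -0.63 to 1.67, HMMR -0.15 to 0.66, KIF20B -0.59 to 0.67, INCENP -1.12 to 0.47, CENPF -0.98 to 0.35, ASPM -1.40 to 0.26, WEE1 -0.59 to 0.23, ECT2 -0.67 to 0.11, KIF14 -1.08 to 0.083, CENPE -0.85 to 0.077, CDCA8 -0.81 to 0.052 and TTK -0.44 to 0.027. With the replicate block as numbered and crossed, KIF20B became 0.018. The cause of these turns was not tested. PRC1 and NUSAP1 held few reads, 1 to 38 and 18 to 200, and share exon bases with a read-through gene. The cause of their low counts was not tested.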

Other observations

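Genes that regulate mitotic transcription, and the DNA replication genes that are used earlier in the cell cycle, are given beside the members for comparison. Of 24 regulators, 10 fell and 4 rose after knockdown in SNB19, where 28.5% of all genes fell and 27.4% rose. CDKN1A, the CDK inhibitor p21 whose induction normally lowers mitotic genes through DREAM, fell (log2 fold change -1.40 ± 0.065 (SE), adjusted p = 3.37e-13). FOXM1, an activator of G2 genes, fell (log2 fold change -0.48 ± 0.059 (SE), adjusted p = 8.77e-07), as did NFYC, a subunit of the CCAAT-binding factor NF-Y (log2 fold change -0.85 ± 0.07 (SE), adjusted p = 2.27e-09). In U87 none of 23 tested passed, and 10 of them lay below 0 (median 0.05). The E2F factors E2F2 and E2F1 had log2 fold changes of -1.85 and -1.36, and MYBL2, the MYB of the activating complex, of -1.58.

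Of 47 replication genes, 22 rose and 8 fell after knockdown, against the same shares of all genes (median 0.17), whereas 8 of the 44 members rose and 22 fell (median -0.18). CDT1, a licensing factor, and MCM3, a helicase subunit, rose (log2 fold changes 0.86 ± 0.057 (SE), adjusted p = 8.70e-11, and 0.50 ± 0.051 (SE), adjusted p = 4.60e-08), and TK1, thymidine kinase, fell (log2 fold change -0.71 ± 0.07 (SE), adjusted p = 3.80e-08). In the joint fit of all 10 libraries 4 rose and 0 fell. In U87, 43 of the 47 lay below 0 (median -1.19) and none passed, with LIG1, a DNA ligase, at -2.09, ORC1, of the origin recognition complex, at -2.001 and the helicase subunit MCM5 at -1.996. Without EV 1 the median of the 47 was -1.05, against 0.01 for all genes. Whether the replication list differed from the members in SNB19 was not tested.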
